A study of Mus musculus with 9 samples.

Results

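The guanylate-binding proteins (GBPs) are the subject here, measured in mouse KSL cells. These are bone marrow cells sorted for c-Kit and Sca-1 and against lineage markers and IL7Ra, a population rich in blood stem cells and early progenitors. The family was chosen by measured values of these 9 arrays, and the comparison behind the choice is not recorded. It is taken here to be that of RUNX1(41-214) with the other groups, where Gbp2b had a large negative log2 difference. Every value of a member from those arrays is therefore a description and carries no test. The members are the probe sets annotated to Gbp2, Gbp2b, Gbp3, Gbp4, Gbp6, Gbp7 or Gbp8. A probe set is the group of short oligonucleotides that measures a transcript on the array. They number 9 of the 22626 probe sets, and 8 of them carry 1 gene symbol: 2 for Gbp2, 2 for Gbp7 and 1 each for Gbp2b, Gbp3, Gbp6 and Gbp8. The remaining probe set, 1421104_at, is annotated to both Gbp8 and Gbp4, and Gbp4 has none of its own.

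GBPs are large GTPases of the dynamin superfamily, among the proteins that interferon gamma raises most in many cells. They bind and hydrolyse GTP, assemble into polymers, and in mice coat the vacuoles of parasites and the surface of bacteria, together with the immunity-related GTPases (IRGs), and help to start inflammasome signalling. Their promoters are textbook sites of the interferon-stimulated response element (ISRE), which interferon-activated STAT and IRF factors bind.

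The 3 groups had 3 arrays each, all from mice with a C57BL/6 background, per the labels. RUNX1(41-214) mice were examined 4 months after transduction and transplantation with a retroviral vector for RUNX1(41-214), the part of the transcription factor RUNX1 from residue 41 to residue 214, which holds its DNA-binding Runt domain. Runx1KO mice were Runx1 floxed/floxed MxCre+/-. Control mice were Runx1 floxed/floxed MxCre-/-. Runx1KO and control mice were both examined 3 months after poly IC, a double-stranded RNA that induces interferon and through it the Mx promoter that drives Cre. The labels of the RUNX1(41-214) group name no poly IC and no floxed alleles, and no transplanted group with an empty vector was analysed here. Differences between RUNX1(41-214) and the other groups therefore cannot be told apart from those of transplantation, transduction, genotype and poly IC. The labels call the arrays of a group biological replicates and do not say how many animals each holds.

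Median signals per array ran from 125 to 147. The 3 groups gave lowest to highest summed signals of 12299 to 14134 in RUNX1(41-214), 12316 to 13203 in Runx1KO and 9929 to 12546 in control cells over the 6 of 8 KSL marker genes that were measured. Runx1 itself, on its brightest probe set, gave 1815, 1958 and 2093 in RUNX1(41-214), against 2417, 3476 and 2563 in Runx1KO and 1701, 931 and 1475 in control cells, so the arrays labelled Runx1KO had the higher signals. Neither the deleted exon nor the place of these probes along the transcript is known here, so this signal does not test the deletion. The log2 ratio of 3′ to 5′ Gapdh control signals, a sign of RNA integrity, was 2.13 in Runx1KO replicate 3 and 1.85 in control replicate 2, against 0.98 to 1.29 on the other 7 arrays.

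Gbp2b was near the bottom of the signal scale in RUNX1(41-214) cells and far above it in the other groups. This gene, long called Gbp1 in mice, encodes a GBP that ends in a prenylation motif for membrane binding. Probe set 1420549_at gave 9.56, 9.43 and 4.93 in RUNX1(41-214) replicates 1 to 3, against 896, 406 and 980 in Runx1KO and 673, 520 and 563 in control cells (deposited signal). All RUNX1(41-214) arrays lay below all others by a wide margin, while the Runx1KO arrays spanned the control values and went beyond them on both sides. It was brighter than 7.73% to 14.7% of probe sets on the RUNX1(41-214) arrays, against 64.9% to 81.6% on the Runx1KO and 69.1% to 74.0% on the control arrays. Without detection calls the RUNX1(41-214) signals are not shown to be above background, so no ratio of signals is given. On the log2(signal + 16) scale after quantile normalization the means were 4.58 ± 0.17 in RUNX1(41-214), 9.50 ± 0.73 in Runx1KO and 9.21 ± 0.21 in control cells (SD, n = 3 each). The log2 difference of RUNX1(41-214) was -4.63 ± 0.33 (SE) from control and -4.92 ± 0.33 from Runx1KO. The offset of 16 exceeds the RUNX1(41-214) signals and so limits these differences: with an offset of 1 they were -6.05 and -6.35. In these sorted but bulk samples, fewer cells with the transcript and less transcript per cell cannot be told apart.

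Gbp2, which lies next to Gbp2b on chromosome 3 and also ends in a prenylation motif, was not lower in RUNX1(41-214) cells. Probe set 1418240_at gave 1359, 1164 and 1108 in RUNX1(41-214), against 1293, 1366 and 862 in Runx1KO and 813, 1171 and 595 in control cells. Probe set 1435906_x_at gave 1557, 1352 and 1153 in RUNX1(41-214), against 1373, 1346 and 1183 in Runx1KO and 868, 1220 and 875 in control cells. On both probe sets the RUNX1(41-214) arrays overlapped those of the other groups. The suffix _x_at marks probes that can also match other transcripts, so this probe set is the less certain of the pair. Their log2 differences of RUNX1(41-214) from control were 0.53 ± 0.24 and 0.45 ± 0.17 (SE), and from Runx1KO 0.08 ± 0.24 and 0.06 ± 0.17. On 1418240_at the difference from control was 0.29 without control replicate 3 and 0.79 without both arrays of high 3′ to 5′ Gapdh ratio. Gbp2 and Gbp2b thus differed in the sign of their difference from control.

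The promoters of these neighbours are shown because both hold a match to the ISRE with the same letters although their signals differed in RUNX1(41-214) cells. Each runs from 250 bases before to 50 bases after the gene start (RefSeq, GRCm38.p6, plus strand), with the match to the ISRE pattern (GAAA, any 2 bases, then GAAA again), here on the reverse strand, in capitals. That of Gbp2b is chr3:142594597-142594896 and that of Gbp2 is chr3:142620413-142620712.
Gbp2b: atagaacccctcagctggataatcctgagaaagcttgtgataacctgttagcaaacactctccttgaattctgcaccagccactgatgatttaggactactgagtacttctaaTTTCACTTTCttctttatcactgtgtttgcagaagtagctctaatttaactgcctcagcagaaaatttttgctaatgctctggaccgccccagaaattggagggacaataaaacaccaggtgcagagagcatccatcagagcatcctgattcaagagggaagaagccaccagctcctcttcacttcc
Gbp2: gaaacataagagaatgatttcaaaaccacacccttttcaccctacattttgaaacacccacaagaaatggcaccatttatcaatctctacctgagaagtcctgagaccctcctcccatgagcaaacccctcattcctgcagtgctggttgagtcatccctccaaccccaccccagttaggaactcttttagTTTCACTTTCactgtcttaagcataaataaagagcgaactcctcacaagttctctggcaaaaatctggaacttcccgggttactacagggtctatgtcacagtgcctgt

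The 10 matched bases read TTTCACTTTC in both, starting 137 bases before the gene start in Gbp2b and 59 bases before it in Gbp2. Of the 7 listed genes, 4 had a promoter in the table (Gbp2, Gbp2b, Gbp3 and Gbp7), and all 4 held an ISRE match, searched on both strands. In Gbp7 it started 53 bases and in Gbp3, on 1 of its 2 promoters, 45 and 39 bases before the start, the pair overlapping. The pattern occurred in 3.44% of 32851 promoters of 300 bases. The gamma-activated pattern TTCNNNGAA, which reads the same on either strand, had 2 matches in Gbp7 and none in the other 3 genes, against 8.3% of promoters with a match. The Runx motifs TGTGGT and TGCGGT, searched on both strands, matched once in Gbp2, 226 bases before its start, and in 22.4% of all promoters. A match of letters is not a site of binding.

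**Figure D1:**
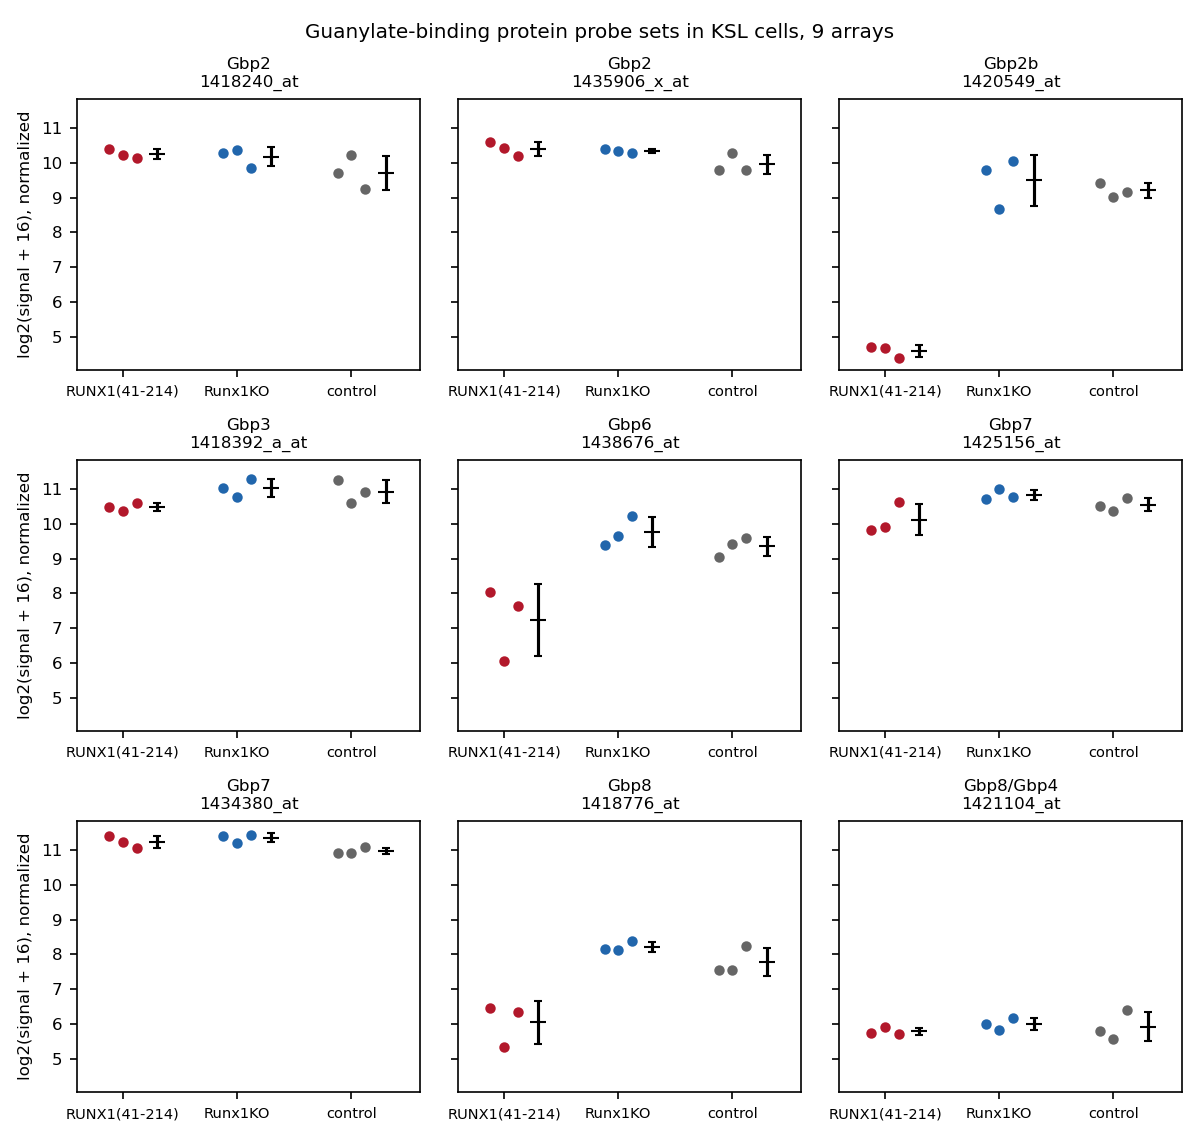
Log2(signal + 16) after quantile normalization (vertical axis) for the 9 GBP probe sets in the 3 groups. Points are arrays and bars are the mean ± SD (n = 3). Gbp2b, Gbp6 and Gbp8 (1418776_at) lie lower in RUNX1(41-214) on all 3 arrays, with Gbp2b at 4.58 on average.

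Gbp3 and Gbp7 continue the cluster on chromosome 3, and both had smaller differences. Gbp3, which like its relatives is interferon-inducible, gave 1428, 1315 and 1527 in RUNX1(41-214), against 2144, 1799 and 2403 in Runx1KO and 2458, 1553 and 1856 in control cells. The RUNX1(41-214) arrays lay below all Runx1KO arrays, and at their highest they reached the lowest control array on the normalized scale. Its log2 difference of RUNX1(41-214) was -0.44 ± 0.19 (SE) from control and -0.55 ± 0.19 from Runx1KO.

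The 2 probe sets of Gbp7, a GBP known in mouse macrophages for its part in oxidative killing of bacteria, disagreed in sign. Probe set 1425156_at gave 897, 927 and 1550 in RUNX1(41-214), against 1712, 2108 and 1651 in Runx1KO and 1461, 1325 and 1647 in control cells. Replicates 1 and 2 of RUNX1(41-214) were below every other array, and replicate 3 lay among the control values. Probe set 1434380_at gave 2736, 2396 and 2093 in RUNX1(41-214), against 2795, 2439 and 2660 in Runx1KO and 1945, 1945 and 2083 in control cells. Here replicates 1 and 2 of RUNX1(41-214) lay above the control arrays, replicate 3 lay within them after normalization, and the RUNX1(41-214) and Runx1KO arrays overlapped. The log2 difference of RUNX1(41-214) from control was -0.43 ± 0.21 on the one and 0.25 ± 0.13 on the other (SE), so the data give Gbp7 no single direction against control. Against Runx1KO both were negative, at -0.71 ± 0.21 and -0.13 ± 0.13.

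Gbp6 and Gbp8 belong to the other GBP cluster, on chromosome 5, and both were lower in RUNX1(41-214) cells. Gbp6, on 1438676_at, gave 234, 48.1 and 181 in RUNX1(41-214), against 678, 825 and 1128 in Runx1KO and 518, 689 and 753 in control cells. All RUNX1(41-214) arrays lay below all others, replicate 2 far below the other two, and Runx1KO and control overlapped. The log2 difference was -2.12 ± 0.43 (SE) from control and -2.52 ± 0.43 from Runx1KO, and without RUNX1(41-214) replicate 2 it was -1.52 from control and -1.92 from Runx1KO.

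Gbp8, on 1418776_at, gave 65.1, 23.8 and 65.1 in RUNX1(41-214), against 284, 272 and 308 in Runx1KO and 178, 171 and 293 in control cells. Again all RUNX1(41-214) arrays lay below all others, with replicate 2 the lowest, and Runx1KO and control overlapped. The log2 difference was -1.73 ± 0.32 from control and -2.18 ± 0.32 from Runx1KO, and without RUNX1(41-214) replicate 2 it was -1.38 and -1.83. The probe set shared by Gbp8 and Gbp4 was dim, at 34.3, 42.5 and 36.2 in RUNX1(41-214), against 47.8, 40.9 and 55.6 in Runx1KO and 39.9, 33.5 and 71.2 in control cells. It overlapped between RUNX1(41-214) and both other groups, at -0.13 ± 0.23 from control and -0.21 ± 0.23 from Runx1KO. Its signals in control cells, 33.5 to 71.2, left little room to show a fall like that of 1418776_at. Which of the 2 genes the shared probe set measures was not resolved.

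**Figure D2:**
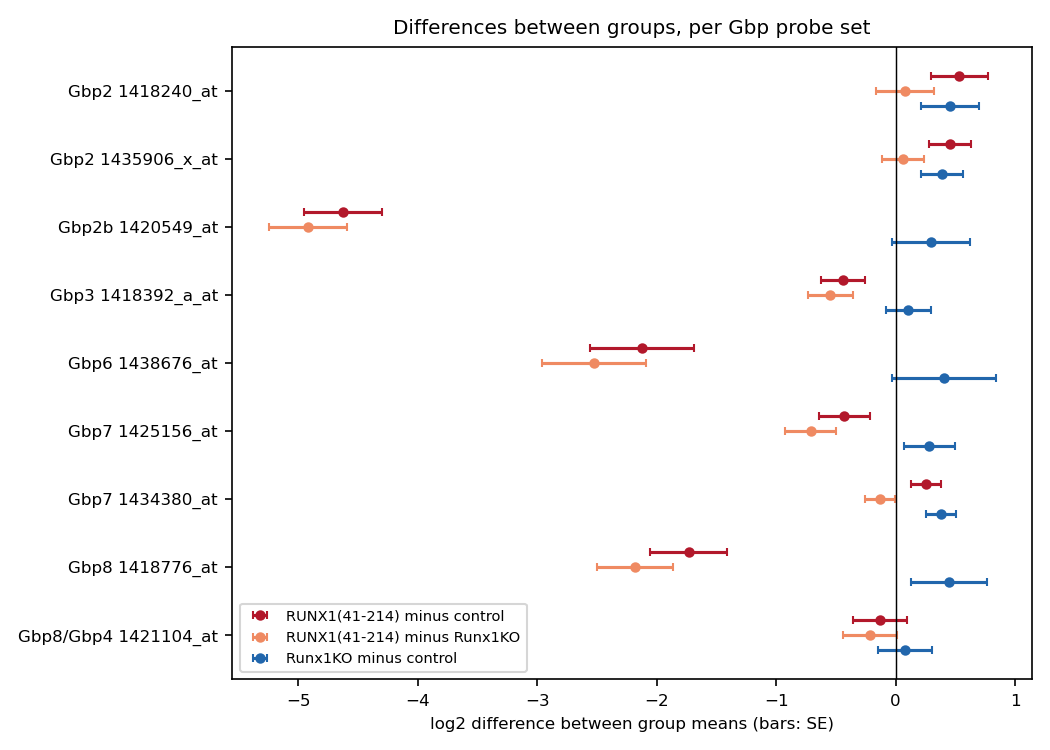
Log2 differences between group means (horizontal axis; bars are SE) for each GBP probe set. Those of RUNX1(41-214) from control run from -4.63 for Gbp2b to 0.53 for Gbp2 (1418240_at), and those of Runx1KO from control from 0.08 to 0.46.

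Over the family, 6 of 9 probe sets were below and 3 above control in RUNX1(41-214) cells, with a median log2 difference of -0.43, beside 0.02 over all probe sets, of which 53.1% were above 0. The arrays of 3 of 9, Gbp2b, Gbp6 and Gbp8, lay below control without overlap, as did those of 9.22% of all probe sets. Below Runx1KO without overlap lay 5 of 9, beside 8.45% of all. As a description only, the limma fit put 3 of 9 past its threshold (an adjusted p of 0.05, Benjamini-Hochberg over all probe sets) as lower than control, beside 1.83% of all probe sets, and 3 of 9 as lower than Runx1KO, beside 0.84%. The median there was -0.55, beside 0.02 over all probe sets, of which 52.8% were above 0. Because the family was chosen with these arrays in view, these counts test nothing and nothing is read from them. Without control replicate 3 only Gbp2b was past the threshold against control. Gbp6 was also not past it without control replicate 1 or 2, with only the 6 arrays compared, or without both high Gapdh arrays, where 1418240_at of Gbp2 was past it as higher.

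Runx1KO cells were compared with control cells, which carry the floxed alleles without Cre. This contrast is taken as not used in the choice of the family, but it shares its control arrays with one that was, and its results were known when the family was chosen. No GBP probe set passed (adjusted p from 0.483 to 0.991, limma), beside 0.137% of all probe sets called. All 9 log2 differences were above 0, from 0.08 to 0.46 with a median of 0.38, beside 49.7% of all probe sets above 0 and a median of -0.00. At an unadjusted p under 0.05 there were 2 of 9, beside 6.44% of all. These were 1434380_at of Gbp7 (0.38 ± 0.13 SE, unadjusted p = 0.0118, adjusted p = 0.483) and 1435906_x_at of Gbp2 (0.39 ± 0.17, unadjusted p = 0.0466, adjusted p = 0.769), both in limma. On these 2 probe sets all Runx1KO arrays lay above all control arrays, as on 4.95% of all probe sets. Gbp2b (0.30 ± 0.33), Gbp8 on 1418776_at (0.45 ± 0.32), Gbp6 (0.40 ± 0.43) and 1418240_at of Gbp2 (0.46 ± 0.24) overlapped between Runx1KO and control. Single arrays moved these values: Gbp2b was at 0.022 without Runx1KO replicate 3 and 0.71 without Runx1KO replicate 2, and Gbp6 at 0.17 without Runx1KO replicate 3. Without control replicate 3, Gbp8 was at 0.68 and 1418240_at at 0.22, and 1418240_at was at 0.71 without control replicate 2. Without the 2 arrays with a high 3′ to 5′ Gapdh ratio, Gbp2b was at -0.066, Gbp3 at -0.19 and the shared probe set at -0.19.

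The genes beside the clusters were examined to see whether low signals extended along the chromosomes. On chromosome 3, 6 of the 8 nearest protein-coding neighbours were measured, on 13 probe sets, of which 0 passed in any of the 3 comparisons. Their log2 differences of RUNX1(41-214) from control ran from -0.35 for Gtf2b, a general transcription factor, to 0.47 for a probe set of Pdlim5, a cytoskeletal adaptor. Several were too dim in control cells to show a fall, with Pdha2 at 1.38 to 7.21, Unc5c at 1.99 to 18.33 and Bmpr1b at 18.05 to 28. The brightest were Gtf2b (1914 to 2993 in control cells), Kyat3 (434 to 657) and the brightest probe set of Pdlim5 (290 to 585). These were at -0.35, 0.04 and 0.20 from control, so the absence of calls is informative for few of the neighbours. Gbp2b lies between Gbp3 and Gbp2, whose differences from control were -0.44 and, on its 2 probe sets, 0.53 and 0.45. On chromosome 5, 2 of 8 neighbours were measured. Abcg3, a transporter gene next to Gbp8, gave on 1421168_at 69.5, 31.6 and 48.6 in RUNX1(41-214), against 147, 203 and 151 in Runx1KO and 126, 235 and 109 in control cells. All RUNX1(41-214) arrays were below the rest, at -1.26 ± 0.32 from control and -1.42 ± 0.32 from Runx1KO, and neither passed (adjusted p = 0.0673 and 0.0752, limma). Its other probe set, 1450141_at, was at -0.68 ± 0.29 from control (adjusted p = 0.314, limma). Lrrc8c, a volume-regulated anion channel subunit on the other side of that cluster, was at 0.40 ± 0.22 from control and did not pass.

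**Figure D3:**
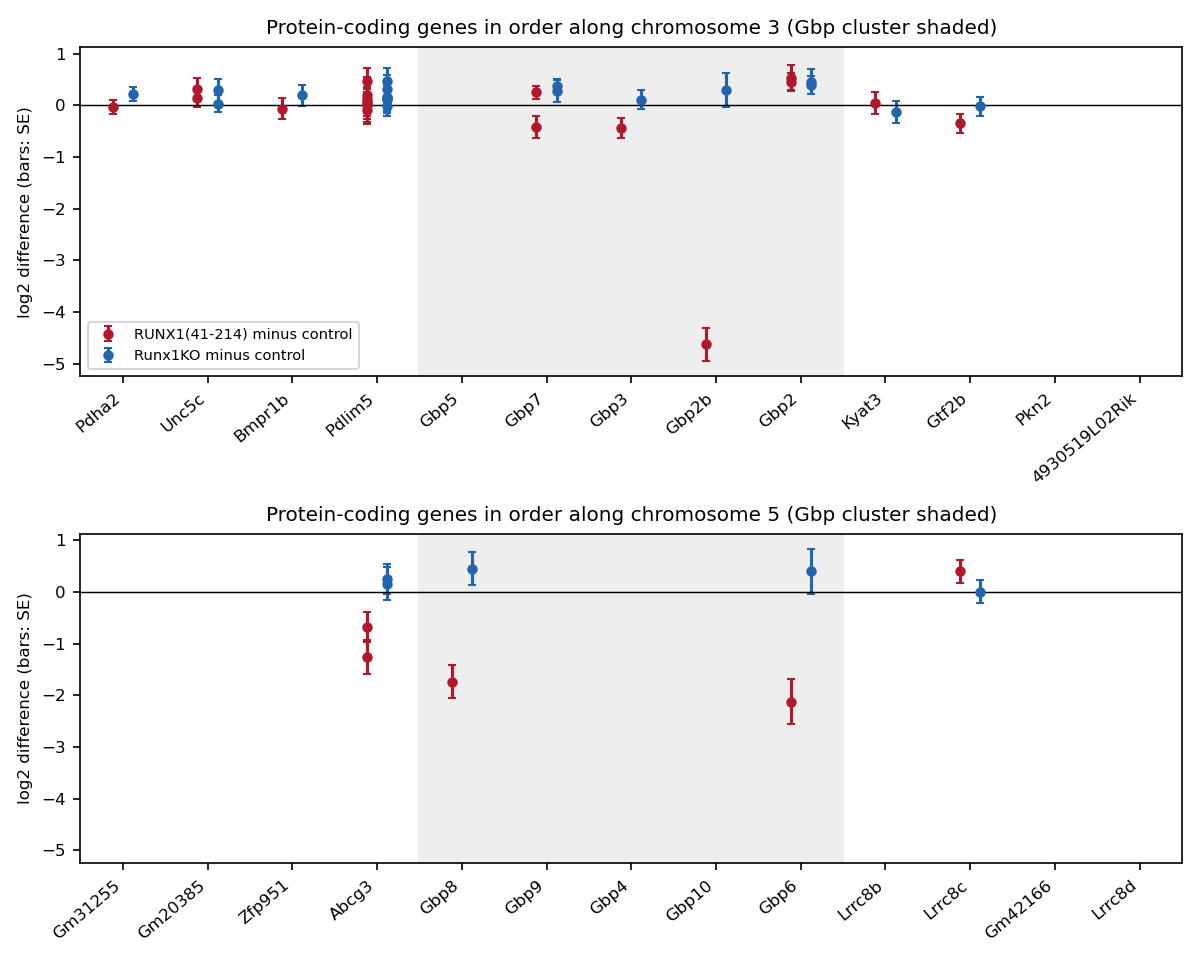
Log2 difference from control (vertical axis; bars are SE) of the GBP genes (shaded) and 4 protein-coding neighbours on each side, in gene order and not to scale; points are probe sets, and genes without a point were not measured by a probe set of their own. On chromosome 3 Gbp2b is at -4.63, and on chromosome 5 Gbp8, Gbp6 and Abcg3 lie below 0 in RUNX1(41-214).

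The IRGs, the other large group of interferon-induced GTPases, were measured for 5 of 9 listed genes, and 0 passed in any comparison. Their median log2 difference was 0.12 for RUNX1(41-214) from control and 0.33 for Runx1KO from control, beside 0.02 and -0.00 over all genes. For RUNX1(41-214) from Runx1KO the median was -0.28, with 1 of 5 above 0, beside a median of 0.02 over all genes. Igtp, also known as Irgm3, an IRG that guards host membranes from attack by its own family, gave 2396, 1817 and 2356 in RUNX1(41-214), against 2602, 3270 and 2192 in Runx1KO and 1765, 2059 and 1637 in control cells. Its Runx1KO arrays were all above control, at 0.54 ± 0.16 (SE, adjusted p = 0.374, limma), and its RUNX1(41-214) arrays overlapped both. Ifi47, another IRG, was at 0.34 ± 0.08 for RUNX1(41-214) from control (adjusted p = 0.0511, limma) and 0.28 ± 0.08 for Runx1KO from control (adjusted p = 0.359, limma). Iigp1, an IRG that attacks parasite vacuoles and that falls outside the naming rule, was named after its values were seen. It gave 1134, 515 and 1274 in RUNX1(41-214), against 1469, 2198 and 1232 in Runx1KO and 1124, 1177 and 956 in control cells, so that RUNX1(41-214) replicate 2 was its lowest array too.

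Of the genes that carry the interferon signal to the GBPs, 12 of 13 in the interferon gamma pathway and 12 of 14 in the type I pathway were measured, and 0 passed in any comparison. In the first, the kinase Jak2 was at 0.32 ± 0.13 and the STAT inhibitor Pias1 at 0.10 ± 0.14 for RUNX1(41-214) from control (adjusted p = 0.295 and 0.823, limma), and Pias1 was at 0.44 ± 0.14 for Runx1KO from control (adjusted p = 0.452, limma). For RUNX1(41-214), 7 of these 12 genes were above 0 from control and 6 from Runx1KO. The IRF factor Irf1 was at -0.28 ± 0.13 from control and -0.25 ± 0.13 from Runx1KO, its RUNX1(41-214) arrays below both groups. Irf8 was at -0.49 ± 0.30 and -0.69 ± 0.30, overlapping control and below Runx1KO. Neither passed (adjusted p = 0.378 and 0.518 from control, 0.585 and 0.456 from Runx1KO, limma). In the second, the receptor chain Ifnar2 was at 0.35 ± 0.16 and the ISG15 protease Usp18 at 0.58 ± 0.28 (adjusted p = 0.359 and 0.401, limma). Among type I interferon-stimulated genes 1 of 29 rose past the threshold in RUNX1(41-214) cells against control, and 0 fell. Of these 29 genes 22 were above 0, with a median log2 difference of 0.21, beside 0.02 over all genes. Ifi27l2a averaged 6.94 ± 0.53 in RUNX1(41-214) and 5.70 ± 0.18 in control cells (normalized log2 scale, SD, n = 3 each), a difference of 1.23 ± 0.29 (SE, adjusted p = 0.0426, limma). This call held in 7 of 17 alternatives and was lost, among others, without any 1 of the control replicates. Of all 12393 genes, each by its brightest probe set, 1.43% were called higher and 2.19% lower in this comparison. Of Mx1, Mx2 and Atl3, the relatives of the dynamin superfamily that were measured, 0 passed. Mx1 was at 0.24 ± 0.23 and Mx2 at -0.23 ± 0.12 for RUNX1(41-214) from control (adjusted p = 0.716 and 0.447, limma).

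Antigen presentation genes that interferon gamma raises included 16 of 18 measured. None of the 16 passed against control. Against Runx1KO 2 of them fell in RUNX1(41-214) cells, beside 0.944% of all genes called lower, namely Cd74 and Cxcl9. Cd74, the invariant chain of MHC class II, was at 8.24 ± 0.39 in RUNX1(41-214) and 9.94 ± 0.25 in Runx1KO cells (SD of normalized log2 signals, n = 3 each), a log2 difference of -1.70 ± 0.23 (adjusted p = 0.00517, limma). Cxcl9, a chemokine induced by interferon gamma, was dim, at 4.82, 4.43 and 7.27 in RUNX1(41-214) against 24.9, 23.4 and 17.9 in Runx1KO (deposited signal, log2 difference -0.82 ± 0.14, adjusted p = 0.0164, limma). With offsets of 1 and 50 its difference was -1.83 and -0.38. The call of Cxcl9 was lost without Runx1KO replicate 1 or 2 or RUNX1(41-214) replicate 1 or 2.

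Genes that act with GBPs in inflammasome signalling were measured for 8 of 10, and 2 rose in RUNX1(41-214) cells against control. Of all genes, 1.43% were called higher in this comparison. Naip2, a sensor of bacterial secretion systems, was at 9.49 ± 0.16 in RUNX1(41-214) and 7.61 ± 0.32 in control (log2 difference 1.88 ± 0.24, adjusted p = 0.00143, limma). Casp4, the caspase called caspase-11 in mice that binds bacterial lipopolysaccharide, was at 10.18 ± 0.17 in RUNX1(41-214) and 9.20 ± 0.08 in control (0.98 ± 0.22, adjusted p = 0.0394, limma), a call that was lost without any 1 of the RUNX1(41-214) or control arrays. In the p200 family of interferon-inducible DNA sensors 3 of 9 were measured, and Ifi209 rose (3.29 ± 0.45, adjusted p = 0.00237, limma). Of the 11 autophagy conjugation genes, some of which mouse GBPs need to reach vacuoles, 0 passed in any comparison. Atg7 was at -0.41 ± 0.22 and Gabarapl1 at -0.28 ± 0.14 for RUNX1(41-214) from control (adjusted p = 0.459 and 0.414, limma). In Runx1KO against control 0 genes of these 9 lists passed, beside 0.194% of all genes, and their lowest adjusted p was 0.0927 (limma), for Ifi209 (2.31 ± 0.45).

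**Figure D4:**
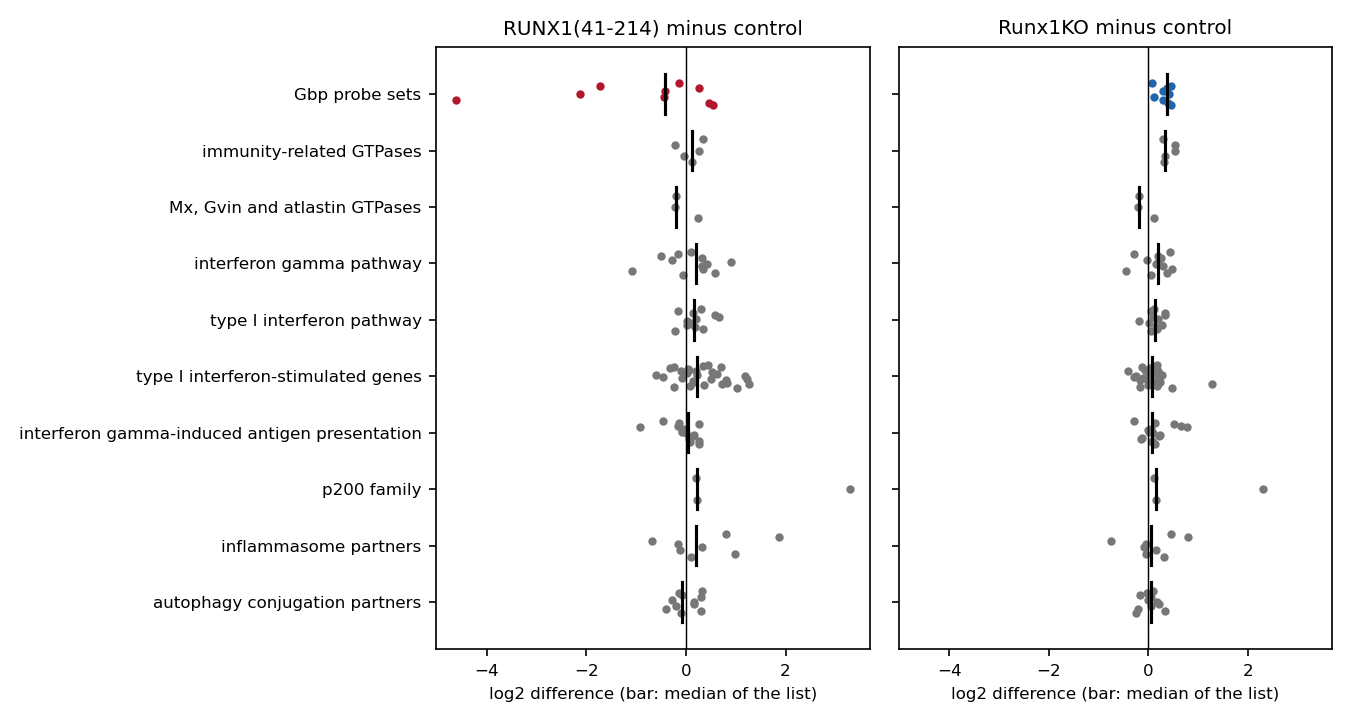
Log2 differences from control (horizontal axis) of the GBP probe sets and of 9 lists of related genes, 1 point per probe set or gene, with the list's median as a black bar. In RUNX1(41-214) the GBP points reach from -4.63 to 0.53, and the 5 IRGs from -0.23 to 0.34.

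Markers of other cells that a KSL gate could hold were measured in the same arrays. The summed signal of the T and NK cell markers (8 of 9 measured) was 297 to 409 in RUNX1(41-214), 503 to 1144 in Runx1KO and 1080 to 1419 in control cells. Nkg7, a cytotoxic granule gene, was at 120 to 250 in RUNX1(41-214), 369 to 931 in Runx1KO and 942 to 1243 in control cells. It was the 1 of 8 that fell in RUNX1(41-214) against control (-2.43 ± 0.34, adjusted p = 0.0027, limma). Of all genes, 1.43% were called higher and 2.19% lower in that comparison. Klrd1, an NK receptor gene, was at -0.39 ± 0.40, while Cd8a, a T cell co-receptor, was at 0.66 ± 0.23 with all RUNX1(41-214) arrays above control, and Cd3g at 0.50 ± 0.26. Neither passed (adjusted p = 0.184 and 0.451, limma). The defining T cell marker Cd3e was near the bottom of the scale in every group, at 3.16 to 8.40 in RUNX1(41-214), 4.85 to 7.73 in Runx1KO and 6.36 to 24.6 in control cells. Monocyte and macrophage markers (7 of 8) summed to 3466 to 4692 in RUNX1(41-214), 3671 to 5322 in Runx1KO and 2439 to 5074 in control cells, with Fcgr3 higher (2.75 ± 0.52) and Mpeg1 lower (-2.20 ± 0.48) against control, while Lyz2 was at 0.10 ± 0.16 and Csf1r at 0.82 ± 0.63. Erythroid markers (4 of 6) summed to 485 to 764 in RUNX1(41-214), 105 to 333 in Runx1KO and 173 to 612 in control cells, with Alas2 (2.20 ± 0.42) and Slc4a1 (2.91 ± 0.57) higher against control and Epor at -0.22 ± 0.64. These calls of Fcgr3, Mpeg1, Alas2 and Slc4a1 were each lost without RUNX1(41-214) replicate 2, among others. B cell markers (5 of 6) summed to 596 to 722 in RUNX1(41-214), 542 to 1006 in Runx1KO and 583 to 768 in control cells, and 0 passed, with Cd79b at 0.08 ± 0.20 and Cd79a at -0.55 ± 0.61 from control. Endothelial and stromal markers (8 of 8) summed to 503 to 704 in RUNX1(41-214), 744 to 823 in Runx1KO and 542 to 715 in control cells, and 0 passed, with Emcn at 0.10 ± 0.29 and Col1a2 at -0.76 ± 0.22. Among the 6 KSL markers 0 passed, with Cd34 at 0.23 ± 0.11, Meis1 at 0.22 ± 0.12, Slamf1 at 0.79 ± 0.29 and Mecom at 0.03 ± 0.20 from control. Kit was at 0.57 ± 0.14 with all RUNX1(41-214) arrays above control (adjusted p = 0.0562, limma), and Flt3 at -0.60 ± 0.21 with all below (adjusted p = 0.187, limma). No marker was listed at 0. The part of these cells in the GBP values was not tested.

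Profiles over the 9 arrays were compared with that of Gbp2b, as the root mean square difference of log2 signals after each was centred on its own mean. The 5 nearest genes were Gdpd3 (0.59), Ndn (0.68), Bex1 (0.79), Hdgfl3 (0.79) and Il7r (0.90). All 5 were low in RUNX1(41-214), the pattern that largely set their rank. They parted in Runx1KO: Gdpd3, a lipid phosphodiesterase gene, was at 0.47 ± 0.18 (SE) from control, while Ndn, an imprinted growth suppressor, was at -0.99 ± 0.19, Bex1 at -0.70 ± 0.35 and Hdgfl3 at -0.69 ± 0.36. Il7r, the gene of the IL7Ra that the cells were sorted against, was at 0.14 ± 0.51. Its deposited signals were 24.6 to 43.8 in RUNX1(41-214), 380 to 1179 in Runx1KO and 280 to 1400 in control cells. Whether the sorted cells differed between the groups was not tested. Within the family, Gbp6 (1.32) and Gbp8 on 1418776_at (1.42) came nearest to Gbp2b, and both probe sets of Gbp2 were farthest (2.41 and 2.45).

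**Figure D5:**
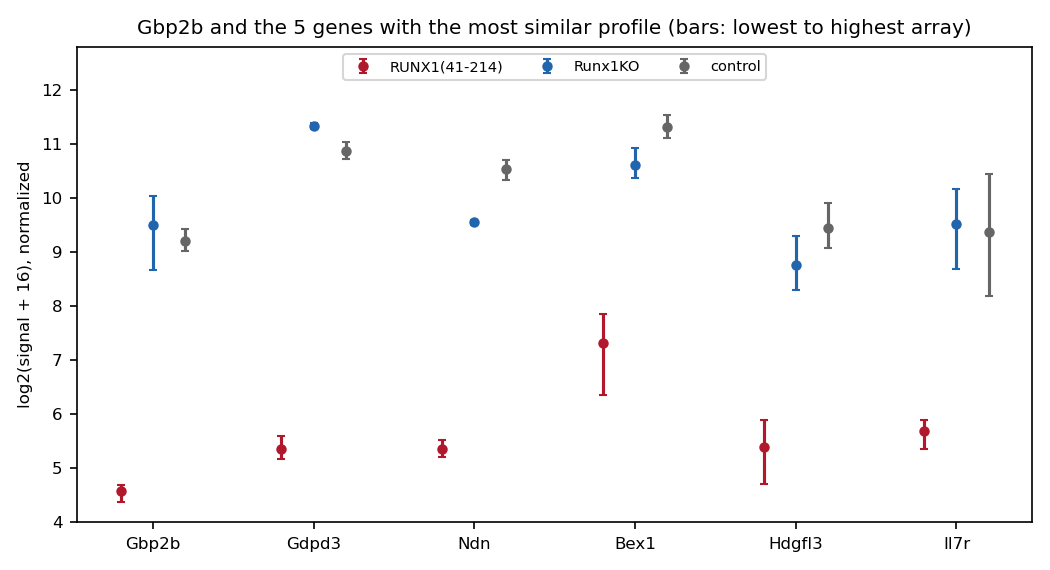
Log2(signal + 16) after quantile normalization (vertical axis) of Gbp2b and the 5 genes with the smallest root mean square difference from it; points are group means of 3 arrays and bars run from the lowest to the highest array. Gbp2b is at 4.58 in RUNX1(41-214), 9.50 in Runx1KO and 9.21 in control cells.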

How the data were processed

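RNA of sorted KSL cells was labelled by the two-cycle biotin procedure, per the labels' protocols, and the authors deposited 1 linear signal intensity for each probe set (0.53 to 20215). How these were summarised and scaled is not given in the sources used here. Removing 64 control probe sets left 22626. Signals were taken as log2(signal + 16) and quantile normalized, since the array medians spanned 7.14 to 7.35 on that scale. Low signals were not filtered and no detection calls were used. The offset pulls differences of dim probe sets toward 0.

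Group means were estimated from the 9 arrays together using limma 3.58.1 under R 4.3.3 (eBayes with a variance trend, 6 residual degrees of freedom), each probe set kept separate and p adjusted by Benjamini-Hochberg over all of them. The procedure was also run on simulated data with known changes and independent noise. That run checks the code and does not measure how reliable the calls on these arrays are. Precision is limited by the number of arrays, with a median SE of 0.21 for a log2 difference. Gene symbols came from the array's annotation: 20380 probe sets had 1 symbol, 691 several and 1555 none. Genes of the other lists are represented by their brightest probe set.

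The family and the lists were chosen with earlier results of these data known. Named were all member probe sets, list genes past the threshold in a comparison or else the 2 with the lowest p, the 5 genes most like Gbp2b, the measured neighbours and the 2 brightest genes of each marker list. Other marker genes, Iigp1, Irf1 and Irf8 were named after their values were seen. Alternatives were other offsets (1 and 50), no quantile normalization, removal of probe sets below the 40th percentile, array weights, a replicate block, 1 probe set per gene, the 6 compared arrays alone, and arrays left out.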

Additional observations from a re-analysis of the deposited data

How the results depend on the processing

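The differences of RUNX1(41-214) are descriptions, given here for their size. With an offset of 1 Gbp2b was at -6.05 from control and -6.35 from Runx1KO, and with 50 at -3.43 and -3.72, where Gbp8 was at -1.72 from Runx1KO. With an array left out, these differences from control ran from -4.71 to -4.51 for Gbp2b, -2.51 to -1.52 for Gbp6 and -1.94 to -1.38 for Gbp8, and those from Runx1KO from -5.33 to -4.65, -2.91 to -1.92 and -2.39 to -1.83. From control the other members ran from 0.29 to 0.79 (1418240_at) and 0.35 to 0.61 (1435906_x_at) for Gbp2, -0.60 to -0.27 for Gbp3, -0.68 to -0.28 (1425156_at) and 0.17 to 0.34 (1434380_at) for Gbp7, and -0.31 to 0.10 for the shared probe set. The GBP probe sets past the threshold numbered 1 to 3 against control and 2 to 4 against Runx1KO.

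In Runx1KO against control 0 GBP probe sets passed under every alternative. Signs turned for 3 of them. Without both arrays of high 3′ to 5′ Gapdh ratio Gbp2b was at -0.066, Gbp3 at -0.19 and the probe set of Gbp8 and Gbp4 at -0.19, and the last was at -0.022 with array weights. With an array left out Gbp3 ran from -0.059 to 0.27 and the shared probe set from -0.10 to 0.31, both below 0 without control replicate 2 or Runx1KO replicate 3.

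Of all probe sets, 31 passed in Runx1KO against control, 54 without quantile normalization, 68 without dim probe sets, 7 with the 6 arrays alone, 17 without both high Gapdh arrays and 13 to 47 with an array left out. In RUNX1(41-214) 690 passed against control, 1055 with array weights and 333 to 721 with an array left out, and 245 against Runx1KO, 541 with weights, 150 without both Gapdh arrays and 95 to 261 with an array left out. Same-numbered arrays deviated together in some pairs and not in others: the correlation was 0.36 and 0.41 between Runx1KO and control for numbers 2 and 3, and -0.17 to 0.17 in the other 7 pairs. With 3 of 9 pairs above 0.1 the numbers were not taken to pair the arrays, although 6 of 9 arrays correlated best with their own number. The replicate block gave 38, 685 and 253 calls and changed no GBP call. Of the called genes of other lists, tried after seeing the data, Ifi209, Naip2 and Nkg7 against control and Cd74 against Runx1KO passed in all 18 alternatives. Apart from the smaller sets of arrays or probe sets tested, the cause was not tested. With 1 probe set per gene, 1418240_at of Gbp2, 1425156_at of Gbp7 and the shared probe set gave no value, nor did the last without dim probe sets. Where leaving out an array left 2 in a group, its spread was pooled with the other groups.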
